A study of Mus musculus with 20 samples.

Results

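Cluster 1 comprised 168 of the 589 mouse ovarian surface epithelial (OSE) cells that passed quality control, chosen by the deposited consensus clustering label at k = 2, and the other 421 cells formed the cluster that the study calls responsive. It held 126 of 329 control cells (38.3%, exact Clopper-Pearson 95% interval 33.0 to 43.8%) and 42 of 260 estradiol-treated cells (16.2%, exact interval 11.9 to 21.2%). Primary OSE cells from mouse ovaries were cultured, moved to hormone-free medium and given either ethanol as the vehicle (control) or 100 nM 17β-estradiol (E2) for 15 days. Strain, age and genotype were not stated for the mice whose cells were cultured. Control cells filled columns 1 to 10 and E2-treated cells columns 11 to 20 of 1 Fluidigm C1 chip. Condition therefore cannot be told apart from the side of the chip or from the culture loaded there. No separate animals or cultures are named for the columns. Each column was 1 library of 3′ ends. The 19 libraries with cells (column 13 was not analysed here) are therefore taken as separate reactions, not as separate cultures, and p-values measure the spread between columns.

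The OSE is a single layer of mesothelial-type cells over the ovary that expresses keratins together with mesothelial genes and some mesenchymal genes, and it closes the wound left by ovulation. In culture OSE cells can take on a flat, fibroblast-like shape, in which collagens, fibronectin and matrix proteases are usually made in larger amounts. E2 acts mainly through nuclear estrogen receptors, which bind DNA and change transcription of their target genes.

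Levels are CPM, reads scaled to a library of 1e6 after the cells of each cluster were added up within a library, with TMM scaling. They were set side by side in the 17 libraries (10 control, 7 E2) that had at least 3 cells of each cluster. Since the clusters were made from these same genes, no test compares cluster 1 with responsive cells. A gene was called apart where its log2(CPM + 1) differed by more than 1 on average and in the same direction in all 17 libraries. Library totals were 2692669 to 5077443 reads, and the cluster 1 sums held 233960 to 2223674 of them. Cluster 1 cells had a median of 104946 reads and responsive cells 129533, and calls that changed with depth matched are named. Column 15 (E2) stood apart, with only 3 cluster 1 cells and the highest level of several genes in that cluster, and its responsive sum lay in the control range for C1s1, Lgals1 and Krt19, so values without it are given beside results that rest on it.

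The 7 genes given as markers of the cluster separated it from the responsive cells in every library. Their level differences ranged from 3.44 to 7.44 on the log2 scale.

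Col1a2, the α2 chain of type I collagen, was at 1239 CPM in the lowest, 1859 in the median and 2648 in the highest of the 17 cluster 1 sums, and at 2.33, 7.65 and 65.4 CPM in the responsive sums. The groups did not overlap, and the mean difference of log2(CPM + 1) was 7.44 ± 0.97 (SD, n = 17). A read of Col1a2 was found in 99.4% of cluster 1 cells (exact interval 96.7 to 100.0%) and in 42.3% of responsive cells, which fell to 13.1% when each cell was thinned to 20000 reads while that of cluster 1 stayed at 98.2%. A single responsive cell held 18.6% of all Col1a2 reads in that cluster.

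Mmp2, a gelatinase that cuts matrix proteins, was at 38.6, 230.1 and 393.1 CPM (lowest, median, highest) in cluster 1 and at 0 to 10.4 CPM in responsive cells. The lowest cluster 1 library still lay above the highest responsive one. Cyp1b1, a cytochrome P450 that hydroxylates E2 and is a target of the aryl hydrocarbon receptor, was at 52.2, 264.2 and 1136 CPM in cluster 1 and at 0 to 10.8 CPM in responsive cells. Lgals3, the β-galactoside-binding protein galectin-3, was at 24.7, 79.6 and 396.0 CPM against 0 to 2.47 CPM. For both genes the ranges again did not overlap, and the cluster 1 libraries themselves differed widely.

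Gpc3, a cell-surface glypican, was at 4.69, 156.7 and 362.2 CPM in cluster 1 and at 0 to 24.5 CPM in responsive cells. It was the marker whose ranges overlapped, although in each library cluster 1 was the higher. Ltbp2, a protein of elastic microfibrils, was at 41.4, 158.8 and 465.8 CPM against 0.35 to 25.4 CPM, without overlap. C1s1, a serine protease of the first complement component, was at 1712, 2801 and 8112 CPM against 137.1 to 444.1 CPM, also without overlap. Unlike the other 6 markers, C1s1 was well expressed outside cluster 1, with a read in 92.2% of responsive cells. Its near copy C1s2 lies on the same chromosome and was apart as well (191 against 19.2 CPM), so reads of these paralogs may have been split between them.

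**Figure D1:**
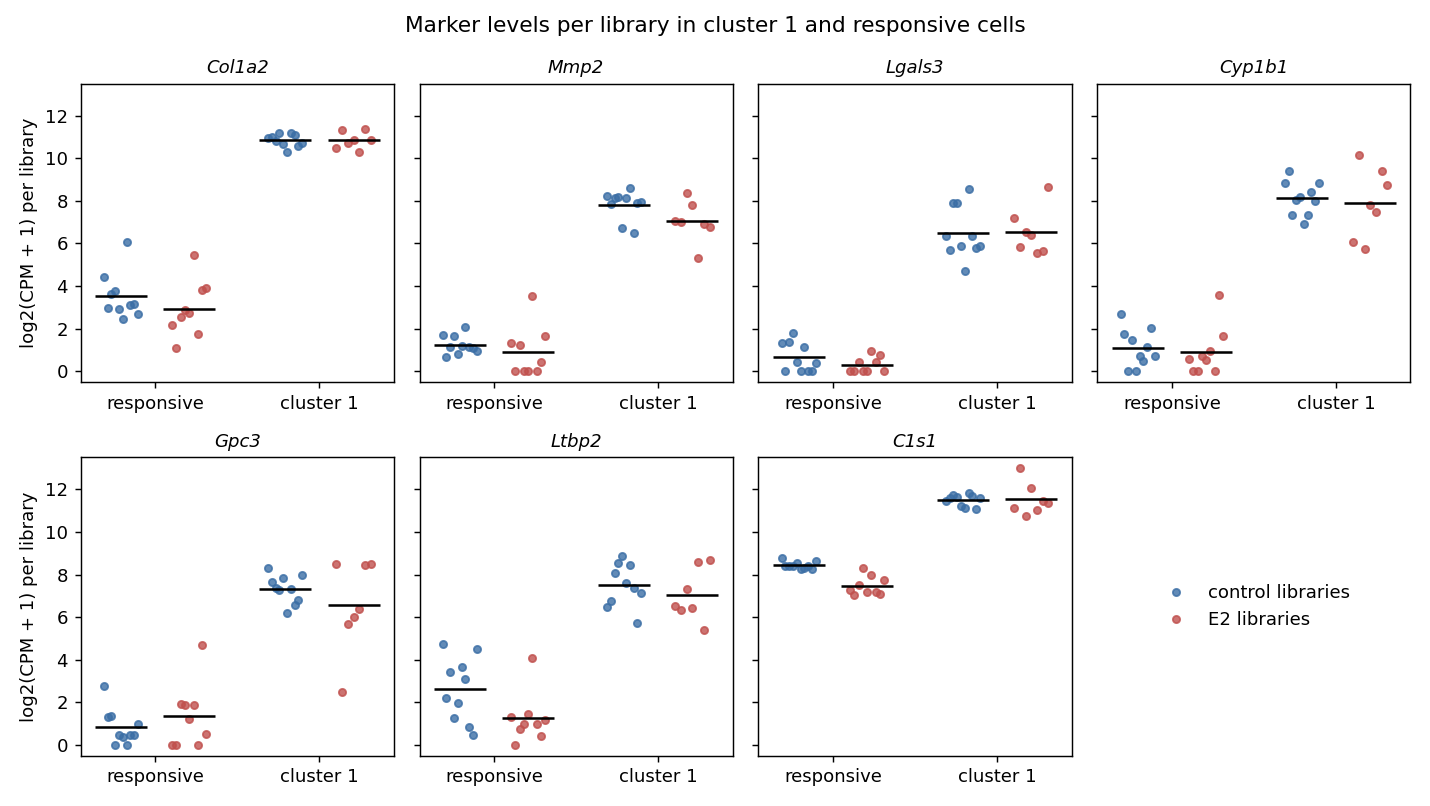
Level of the 7 markers on a log2(CPM + 1) axis, 1 point per library, in responsive cells (10 control and 9 E2 libraries) and cluster 1 cells (10 control and 7 E2 libraries), with black bars at the means. Cluster 1 sits above responsive cells for each gene except in part for Gpc3, whose lowest cluster 1 library (E2 column 15, 4.69 CPM) lies below the highest responsive one (24.5 CPM).

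The markers came together in single cells, but unequally. The median cluster 1 cell had a read of 5 of the 7 markers (range 1 to 7), and 153 of 168 cells (91.1%) had at least 4. The median responsive cell had 2 and 25 of 421 (5.94%) had at least 4. With 20000 reads per cell the medians were 5 and 1. All 7 were present in 17 cluster 1 cells and in 0 responsive cells, which allows a share of up to 0.713%. Col1a2 and C1s1 were found in nearly all cluster 1 cells, whereas Ltbp2 (70.2%), Cyp1b1 (68.5%), Gpc3 (64.9%), Mmp2 (63.1%) and Lgals3 (47.0%) were each absent from many of them. The 5 less frequent markers had reads in 4.28% to 13.1% of responsive cells. Of the 106 cells with an Mmp2 read, 69 also had one of Gpc3 (65.1%), and of the 115 with Cyp1b1, 75 had Ltbp2 (65.2%), beside 64.9% and 70.2% for Gpc3 and Ltbp2 in the whole cluster.

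**Figure D2:**
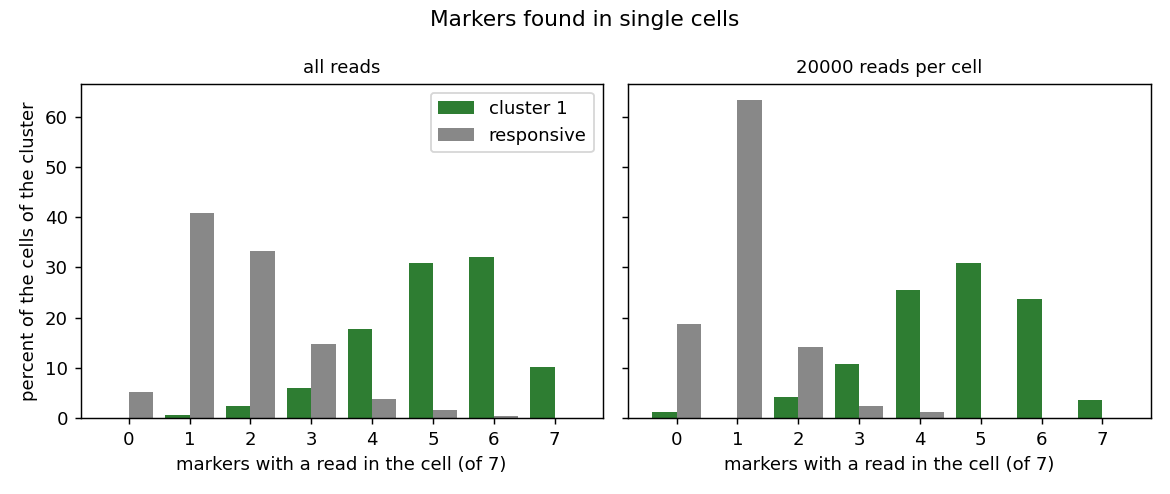
Percent of the 168 cluster 1 cells (green) and the 421 responsive cells (grey) by the number of markers with a read, from all reads (left) and at 20000 reads per cell (right). From all reads cluster 1 peaks at 5 to 6 markers and the responsive cells at 1, with overlap between 1 and 6. At 20000 reads they peak at 5 and 1, with overlap between 0 and 4.

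The upstream sequences of 3 markers from different chromosomes are shown because the levels of these genes were higher in cluster 1 in each library. RefSeq (GRCm38.p6) gave the 250 bases before the annotated start for 6 of the 7 markers. Capitals mark matches on either strand to 6 motifs. The TATA box was searched for as TATAAA, the box bound by NF-Y as CCAAT, and the GC box bound by Sp1 as GGGCGG. The xenobiotic response element of the aryl hydrocarbon receptor was searched for as TNGCGTG, the site of AP-1 as TGANTCA, and that of TEAD factors as CATTCC.
Col1a2, chr6:4505368-4505617, + strand: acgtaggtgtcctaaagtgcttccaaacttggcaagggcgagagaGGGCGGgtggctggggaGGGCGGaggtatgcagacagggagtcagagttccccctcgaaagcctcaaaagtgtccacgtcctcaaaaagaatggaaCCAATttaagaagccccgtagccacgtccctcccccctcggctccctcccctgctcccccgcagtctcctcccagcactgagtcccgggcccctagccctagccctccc
Cyp1b1, chr17:79715062-79715311, - strand: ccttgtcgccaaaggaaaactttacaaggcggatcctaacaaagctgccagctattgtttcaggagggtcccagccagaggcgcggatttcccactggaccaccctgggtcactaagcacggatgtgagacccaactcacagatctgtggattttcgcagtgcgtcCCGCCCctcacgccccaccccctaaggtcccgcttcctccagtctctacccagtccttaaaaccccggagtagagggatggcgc
Lgals3, chr14:47373610-47373859, + strand: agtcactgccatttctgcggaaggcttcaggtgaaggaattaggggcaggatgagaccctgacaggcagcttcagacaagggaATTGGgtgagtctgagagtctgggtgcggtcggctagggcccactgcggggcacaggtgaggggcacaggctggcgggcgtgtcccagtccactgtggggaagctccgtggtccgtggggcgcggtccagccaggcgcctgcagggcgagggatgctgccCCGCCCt
Each of the 3 windows held a GC box, as 32.7% of all 32851 RefSeq promoter windows did, and those of Col1a2 and Lgals3 held the NF-Y box, as did 33.8%. A xenobiotic response element was in the window of Ltbp2, against 4.10% of all windows, and these letters were not in that of Cyp1b1. No motif of the 6 was in all marker windows.

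Cluster 1 carries a fibroblast-like name, and it was checked against fixed lists of markers. Of 10458 genes with a mean level of at least 5 CPM, 249 were apart (2.38%), 35 of them higher in cluster 1 (0.335%) and 214 lower (2.05%). The median difference over all these genes was -0.48, so values are read against that shift. With the responsive sums thinned to the reads of the cluster 1 sum of the same library, an alternative chosen after seeing the data, 46 were higher (0.44%) and 165 lower (1.58%), with a median of -0.37. None of the 6 measured stromal fibroblast markers was apart and higher, and 2 were lower. Thy1, a surface antigen of fibroblasts, was at 5.71 ± 10.8 CPM in cluster 1 and 111 ± 86.4 CPM in responsive cells (SD, n = 17 in each). S100a4, also called fibroblast-specific protein, was at 23.3 ± 31.2 against 161 ± 71.1 CPM. The receptor Pdgfra was near the floor in both, at 6.04 ± 11.3 and 6.74 ± 8.05 CPM. Dcn (decorin), a defining proteoglycan of fibroblasts, was high in both, at 1688 ± 1253 and 1319 ± 370 CPM, or at 1394 ± 335 and 1236 ± 143 CPM without column 15. The summed level of the 9 fibroblast genes in the table was 981 to 6638 CPM in cluster 1 and 1342 to 3194 CPM in responsive cells. Of 7 measured transcription factors of mesenchymal cells, among them Zeb1, Zeb2 and Twist1, none was apart. Their median difference of 0.01 was above the -0.48 of all genes. With only 0.335% of all genes apart and higher, the lack of such genes in these short lists does not decide on the name. The fibroblast list, with Thy1 and S100a4 lower and a median of -1.23, goes against the name, and the transcription factors do not. Only 9 of the 16 stromal fibroblast genes listed were in the table, and cell shape was not measured. The paper described cells stained for LTBP2 protein as flat and mesenchymal. It also reported a higher TGFB hallmark score in this cluster, from another gene set than the TGFB list used below. The cells are called by their cluster label here.

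The 22 genes of OSE and mesothelial identity in the table summed to 7838 to 11324 CPM in cluster 1 and 8815 to 10912 CPM in responsive cells. Of 21 measured, 18 were not apart, 1 was higher and 2 were lower, with a median difference of -0.33. Over all genes 0.335% were higher and 2.05% lower, with a median of -0.48, so the count of 18 does not by itself show that identity was kept. Upk3b, a uroplakin of mesothelium, was at 1890 ± 288 CPM against 1657 ± 276 CPM and had a read in all 168 cells. The keratin Krt7 was at 955 ± 250 against 1184 ± 235 CPM, and Krt18 at 634 ± 300 against 346 ± 119 CPM. Wt1, a transcription factor of the coelomic lineage, was at 621 ± 141 against 649 ± 122 CPM. Each of the 167 cells with a Col1a2 read also had reads of Krt7 and Upk3b, and 159 of them had a read of Wt1. Msln (mesothelin), a surface protein of mesothelium, was apart and higher, at 32.9, 293.7 and 494.7 CPM (lowest, median, highest) in cluster 1 and 2.66, 37.1 and 79.2 CPM in responsive cells. The ranges overlapped through column 15 alone (32.9 CPM), and the next lowest cluster 1 sum of Msln was at 105.9 CPM, in column 19. Krt19 was the main exception. It was at 0 to 83.0 CPM (median 6.07) in cluster 1 and at 269.0 to 772.1 CPM in responsive cells, and at 20000 reads per cell it was found in 18.5% of cluster 1 and 90.3% of responsive cells. Podxl, a sialomucin of the apical membrane, was lower as well, at 52.7 ± 32.7 against 150 ± 38.3 CPM, but was not apart with depth matched. Of 14 genes of epithelial junctions, the tight junction gene Cldn3 and the plakoglobin gene Jup were apart and lower, at 1.45 ± 1.80 and 17.6 ± 10.1 CPM against 54.5 ± 23.6 and 52.8 ± 18.3 CPM. Epcam was at 0.72 ± 1.80 CPM against 24.9 ± 21.3 CPM and was lower in cluster 1 in 16 of 17 libraries.

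Matrix genes did not move as a block. Of 9 measured collagens, Col1a2 was apart and higher and 3 were lower (Col3a1, Col6a1 and Col6a2), with a median difference of -1.29. Col1a1, which pairs with Col1a2 in type I collagen, was at 84.8 ± 46.2 CPM in cluster 1 and 175 ± 49.1 CPM in responsive cells, higher in cluster 1 in 1 of 17 libraries. Of 21 matrix glycoproteins and proteoglycans, Ltbp2 and Gpc3 were apart and higher, and Fn1, Fbln1, Bgn and Sparc were lower. Fn1 (fibronectin) was at 14.9, 55.0 and 263.8 CPM (lowest, median, highest) in cluster 1 and 880, 1181 and 1648 CPM in responsive cells, with no overlap. Sparc, a collagen-binding protein, was at 2889 ± 806 against 6969 ± 1226 CPM. Of 23 matrix proteases, inhibitors and crosslinking enzymes, Mmp2 was apart and higher, and the crosslinkers Lox and Loxl1 were lower, with Loxl1 at 44.8 ± 78.6 against 712 ± 109 CPM. Tnc and Thbs1, adhesion-modulating glycoproteins, had mean levels of 63.4 ± 161 and 122 ± 168 CPM against 1.47 ± 3.04 and 4.59 ± 5.80 CPM, but were higher in 14 and 16 of 17 libraries and so were not apart. Without column 15 Tnc was at 24.8 ± 22.2 CPM. Among basement membrane genes, laminin α1 (Lama1) was apart and higher, at 133 ± 64.2 against 19.2 ± 13.8 CPM, and laminin α4 (Lama4) was apart and lower, at 12.98 ± 20.3 against 75.7 ± 27.9 CPM.

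**Figure D3:**
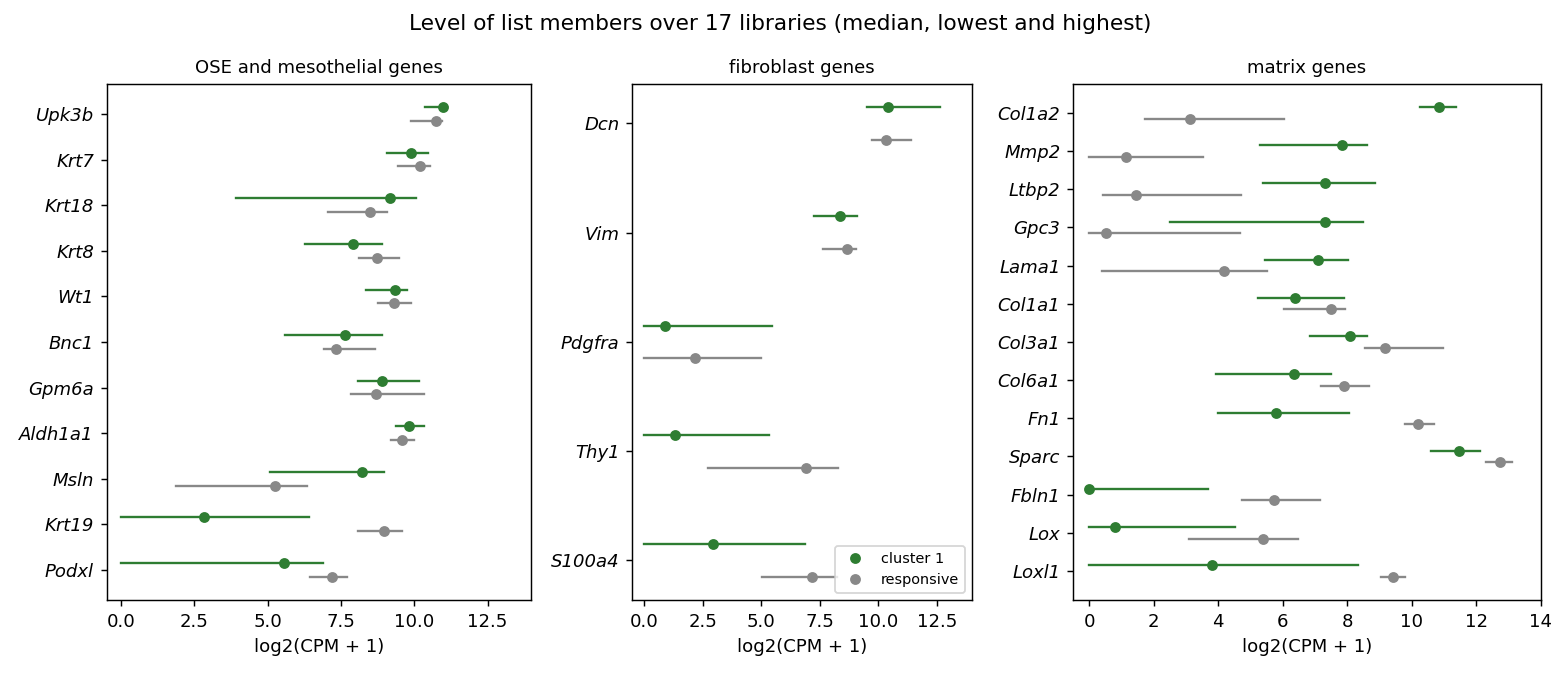
Level of OSE and mesothelial, fibroblast and matrix genes on a log2(CPM + 1) axis in cluster 1 (green) and responsive cells (grey), with a point at the median of the 17 libraries and a line from the lowest to the highest. Upk3b, Krt7, Wt1 and Aldh1a1 overlap almost fully, whereas Col1a2 and Krt19 separate in opposite directions and Fn1, Sparc and Loxl1 lie lower in cluster 1.

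In other groups, too, few members were apart, as over all genes (2.38%). Of 5 galectins, Lgals3 was apart and higher, and Lgals1, among the highest genes in the responsive cells, was lower, at 2053 ± 1330 against 24179 ± 10926 CPM. Of 11 complement genes, C1s1 and C1ra, whose products form the C1 protease, were higher, and the regulators Cfi and Clu were lower. C1ra was at 418 ± 145 against 139 ± 44.0 CPM. Of 11 genes of the aryl hydrocarbon receptor and estrogen metabolism, Cyp1b1 was apart, and the receptor Ahr itself was at 59.3 ± 39.1 against 11.6 ± 11.5 CPM, higher in 15 of 17 libraries. Of 23 actin and contractile genes, Cald1 (caldesmon) was higher, at 1481 ± 277 against 470 ± 66.9 CPM, and Cdc42 was lower. With depth matched Cdc42 was not apart and Myh10 was apart and higher, while Acta2 and Tagln were at 10.5 ± 42.8 and 73.4 ± 274 CPM, with 97.1% and 86.3% of their reads in a single cell each. No integrin (7 measured), WNT gene (17) or cytokine, chemokine or adhesion receptor gene (11) was apart. Of 22 TGFB pathway genes 1 was apart, Id3, which was lower, and with depth matched Tgfb3 was lower too. With 2.38% of all genes apart, such counts say nothing particular about these groups. The WNT genes had a median difference of -1.02, against -0.48 over all genes. Of 19 genes of growth factors and their receptors, Igf2 and the receptor Kdr were lower, and of 19 fatty acid genes, Acot1 and Fads3 were lower.

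Beyond the markers and Msln, the largest differences upward were in Tm4sf1, a tetraspanin-like membrane protein (307 ± 150 against 14.8 ± 18.03 CPM), the protease Prss23 (91.7 ± 81.7 against 2.33 ± 4.49), the Ras exchange factor Rasgrf2 (65.0 ± 43.2 against 2.47 ± 3.79) and the cholesterol exporter Abca1. Abca1 was at 225 ± 522 CPM, or at 99.0 ± 44.1 CPM without column 15, against 7.40 ± 6.51 CPM. Among the largest downward were the growth factor Igf2 (6.60 ± 13.2 against 230 ± 79.4), Ndrg2, the LIM protein Crip1, the metallothionein Mt2, Krt19, Fxyd1, the prostacyclin synthase Ptgis, the iron reductase Cybrd1, Loxl1, Fbln1 and the cathepsin Ctsh. Their mean differences lay between -5.86 and -5.26. In cluster 1, 1 of the 168 cells held 57.6% of the Igf2 reads, and 1 held 63.6% of those of Fbln1. Krt19, by contrast, had a read in 67 of the 168 cells. The part of reads from other cells in these low levels was not tested.

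Many markers of other cells of the ovary were not in the table. Star, which carries cholesterol into mitochondria for steroid synthesis, was apart and higher at 230 ± 146 against 47.1 ± 30.3 CPM, and the 4 theca and steroidogenic genes in the table summed to 106 to 661 CPM in cluster 1 and 32.5 to 144 CPM in responsive cells. Of 3 granulosa genes Amhr2 was lower, though not apart with depth matched, and they summed to 13.2 to 415 CPM against 207 to 539 CPM in responsive cells. Of 3 measured endothelial genes Kdr and Esam were lower, and the 6 in the table summed to 311 to 669 CPM against 525 to 941 CPM, most of it from Pecam1 (458 ± 95.5 CPM, against 557 ± 92.1 CPM in responsive cells). The 5 leukocyte genes in the table summed to 0 to 119 CPM against 34.2 to 171 CPM. The 7 of smooth muscle and pericytes summed to 0 to 183 CPM against 9.08 to 49.7 CPM, with Des, Cspg4 and Kcnj8 at 0 in all cluster 1 sums. The 2 of oviduct epithelium summed to 18.2 to 78.7 CPM against 52.7 to 107 CPM. None of the 6 adipocyte genes was in the table, and Pdgfrb, Lum, Cdh5, Foxl2 and Cyp17a1 were not in it either.

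Cluster 1 was not uniform. At k = 4 the deposited labels put 152 of its cells in their label 1, 13 in label 2, 1 in label 3 and 2 in label 4. The 13 cells of label 2 (10 control, 3 E2) came from 11 libraries, at most 2 from each, and were 7.74% of cluster 1 (exact interval 4.18 to 12.9%), while 12 responsive cells (2.85%, 1.48 to 4.93%) shared the label. These cells were rich in cell cycle transcripts, although the metadata mark all 589 cells as G1. Because the label was made from these genes the levels are a description. Rrm2, a subunit of ribonucleotide reductase used in DNA synthesis, had reads in 10 of the 13 cells and in 7 of the 152, at 368 against 1.49 CPM in the pooled reads. Top2a, a topoisomerase of dividing cells, had reads in 12 of 13 and 65 of 152 cells. Mki67, the proliferation antigen Ki-67, had reads in 10 of 13 and 22 of 152.

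The other genes with the largest rise in label 2 were the kinetochore and spindle genes Sgo1, Kif15, Nusap1 and Spc25, the histone Hist1h2ap, the repair gene Brca1 and the histone chaperone Asf1b, with log2 ratios of 5.16 to 7.21 over label 1 for all 8. Among the largest falls were Ogn, a small proteoglycan (1.61 against 105 CPM), Peak1, Man1a2, Mxd4, Abca1, Foxo3 and Vps41, with ratios of -5.34 to -3.05. Of 4050 genes with a mean of both labels of 50 CPM or more, 149 had a log2 ratio over 2 (3.68%) and 34 one under -2 (0.84%). Of 30 measured cell cycle genes, 28 were higher in label 2, with a median ratio of 3.01, and the D-type cyclins Ccnd1 (-0.09) and Ccnd2 (-0.95) were lower. Ccnd1 was near the floor, with a read in 1 of the 152 label 1 cells. Without the D-type cyclins and the Cdkn inhibitors, 23 genes of proliferation remained, 19 of them higher by more than 2. All 23 were higher, which follows from leaving out the only lower genes. The median ratio of the 23 was 3.52, or 3.29 at 20000 reads per cell. For the 14 of them at 50 CPM or more it was 3.34, against 0.02 over the 4050 genes. A label 2 cell of cluster 1 had reads of 7 to 21 of the 23 (median 16), and a label 1 cell had 0 to 13 (median 3). The ranges overlap between 7 and 13 genes. Label 2 cells had a median of 144277 reads and label 1 cells 103188. In the reads pooled over both conditions, the 7 cluster 1 markers were each lower in label 2 than in label 1. The log2 ratios were -0.12 for Cyp1b1, -0.14 for Col1a2, -0.40 for Mmp2, -0.43 for C1s1, -0.76 for Gpc3, -0.82 for Ltbp2 and -1.72 for Lgals3. By condition the markers did not all keep this sign. Cyp1b1 was higher in label 2 among control cells (0.30) and had 0 reads in the 3 E2-treated cells of label 2. Col1a2 (0.60) and Mmp2 (0.30) were higher in label 2 among E2-treated cells and lower among control cells. C1s1, Gpc3, Ltbp2 and Lgals3 were lower in both conditions. The 12 responsive cells of the same label had 11 to 17 of the 23 cycle genes and 1 to 3 of the 7 markers, so the label spans both clusters.

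**Figure D4:**
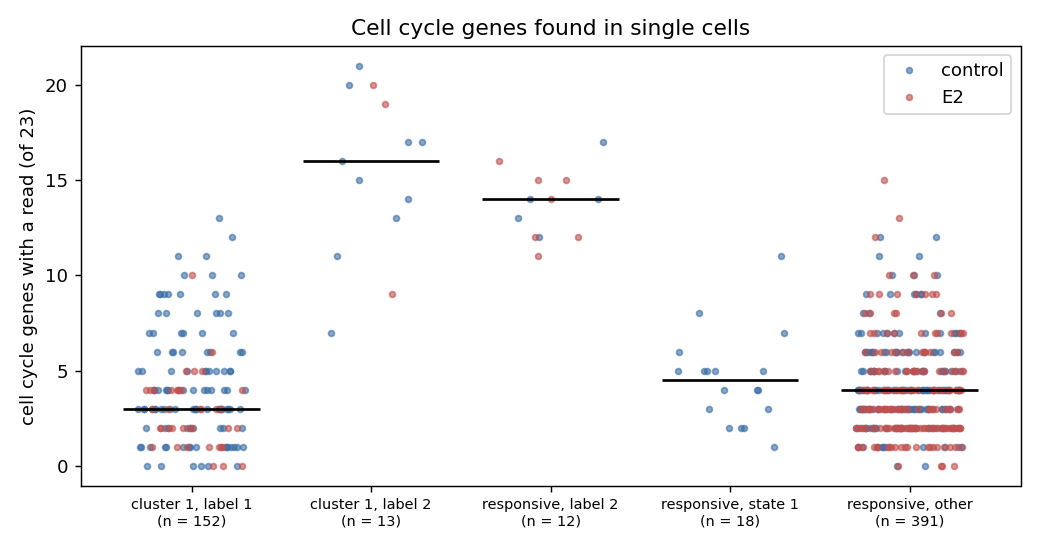
Number of 23 cell cycle genes with a read, 1 point per cell, by deposited label or trajectory state and coloured by treatment, with a black bar at the median. The 13 label 2 cells of cluster 1 (median 16) and the 12 of the responsive cluster (median 14) lie above the other cells (medians 3 to 4.5), with overlap.

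The other 3 cells were at the edge of the cluster. The control cells, of columns 6 and 10, had k = 3 label 2, 4 and 5 of the 7 markers, and pseudotime values of 28.5 and 24.5. The E2-treated cell, of column 16, had 1 marker, lay in trajectory state 4 and had the highest pseudotime of the cluster, 43.3. The other 167 cells lay in state 1, together with 22 responsive control cells. Those 22 had a median of 2 markers, and 4 of them had at least 4.

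Pseudotime is the position on the trajectory that the authors computed from the same expression values. They measured it from a root cell at the far end of the branch of unresponsive cells. They did not take this root as the start of a biological process. Cluster 1 lies on that branch, so its low values follow from where the root was put and are only a description. Most cluster 1 cells were near the root. The median was 1.195, the quartiles were 0.29 and 7.13, and the responsive cells lay between 24.9 and 61.5. Of 2855 genes with a read in at least 50% of cluster 1 cells, 23 had a Spearman correlation with pseudotime under -0.25 in both conditions and 11 had one over 0.25 (126 control and 42 E2-treated cells, no test). By the mean rho of both conditions, the largest falls were in C1s1 (-0.53) and C1s2 (-0.46), then in the non-muscle myosin Myh10, the growth factor carrier Igfbp3, Syt11, the ubiquitin ligase Herc2, the histone demethylase Kdm6b and Col1a2 (-0.36). Over 3 groups of 56 cells in order of pseudotime, pooled C1s1 went from 4145 to 3297 and 1830 CPM and Col1a2 from 2436 to 2087 and 1389 CPM. Gpc3 changed little, at 196, 183 and 203 CPM, and Lgals3 was at 132, 87.1 and 203 CPM. The largest rises were in the ribosomal protein genes Rpl27 (0.43), Rps26 and Mrpl13, in Tpt1, in the ATP synthase genes Atp5j and Atp5k, in the ribosome assembly gene Brix1 and in the locus Gm11518. Igfbp3, Kdm6b, Brix1 and Gm11518 passed the limit of 0.25 in E2-treated cells but not in control cells. Of 83 ribosomal protein genes 73 had a positive mean rho, with a median of 0.12, against -0.04 over all 2855 genes. Lgals1 and Krt19, chosen for their level in responsive cells, were also followed, with Lgals1 from 1465 to 2030 and 2930 CPM and Krt19 from 5.85 to 22.2 and 31.7 CPM, and the last group includes the 3 edge cells. Cells farther from the root had fewer reads and genes (rho -0.28 and -0.33 with pseudotime). The part of this in the correlations was not tested beyond thinning, which left the named genes in the same direction. With 20000 reads per cell 14 genes fell and 4 rose past the same limits.

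Fewer cells were in cluster 1 under E2. Its share was 25%, 38.8% and 51.6% (lowest, median, highest) in the 10 control libraries and 3.33%, 16.7% and 34.6% in the 9 E2 libraries. The groups overlapped, and the difference of -21.6 percentage points was larger than the spread between columns (exact two-sided permutation test, p = 0.000217, adjusted p = 0.00065 over 6 measures). With k-means clusters made without 165 genes called for E2 in either cluster or for the interaction, an alternative chosen after seeing the data, the difference was -20.6 points (exact permutation p = 0.000888). Cell number and loss of cells before capture cannot be told apart here.

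Within cluster 1, control and E2 libraries were compared on 5 further measures. Mean pseudotime was 4.06 ± 1.62 in 10 control and 5.73 ± 4.43 in 7 E2 libraries (exact permutation p = 0.295, adjusted p = 0.354), and the share of label 2 cells was 9.26 ± 7.27% and 7.30 ± 9.58% (exact permutation p = 0.643, adjusted p = 0.643). Neither passed the threshold, which does not show that they were alike. Reads per cell and the mitochondrial share did differ. Reads per cell were 114655 ± 16516 and 90529 ± 13744 (exact permutation p = 0.00586, adjusted p = 0.0117). The mitochondrial share was 2.63 ± 0.34% and 3.63 ± 0.63%, without overlap (exact permutation p = 0.000103, the smallest that 10 against 7 allow, adjusted p = 0.000617). Genes per cell at 20000 reads were 2967 ± 159 and 2762 ± 277 (exact permutation p = 0.0781, adjusted p = 0.117).

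None of the 7 markers was called between E2 and control within cluster 1 (edgeR, quasi-likelihood test). Col1a2 was at 1874 ± 353 CPM in 10 control and 1899 ± 537 CPM in 7 E2 libraries, a log2 fold change of 0.09 (SE 0.17, adjusted p = 0.961). C1s1 was at 2933 ± 527 and 3391 ± 2231 CPM (0.30, SE 0.24, adjusted p = 0.874), with the highest value in column 15. Mmp2 had the largest change among them, -0.60 (SE 0.37, adjusted p = 0.802), and the other 4 lay between -0.21 and 0.40. For Lgals3, Gpc3, Ltbp2 and Cyp1b1 the SE was 0.47 to 0.54, and their intervals are wide. Over all genes, 7 of 8342 were called (0.0839%) and 624 had an unadjusted p below 0.05.

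mt-Co2 and mt-Cytb, subunits of the respiratory chain coded in mitochondria, rose with E2 by log2 0.79 (SE 0.16) and 0.83 (SE 0.16), each with adjusted p = 0.0412 by edgeR. Their levels were 4400 ± 640 and 2931 ± 453 CPM in control and 7232 ± 2222 and 4952 ± 1698 CPM in E2 libraries. Column 15 was the highest for both, at 10770 and 8361 CPM. Without it the changes were 0.64 and 0.63, each with an edgeR adjusted p = 0.034. Of the 13 mitochondrial genes tested in cluster 1, 11 had a positive log2 change, with a median of 0.39, beside the difference in mitochondrial share given above. In responsive cells 10 of 13 had a positive change, with a median of 0.20 and 0 called. There mt-Cytb rose by 0.49 (SE 0.12, edgeR adjusted p = 0.0264), just under the size limit of 0.5. Ctnnd1 (p120-catenin) was called at 2.78 (SE 0.55), but without column 15 its change was 1.46 (adjusted p = 0.282, edgeR). Rps6ka4, a stress-activated kinase, fell from 73.1 ± 42.3 to 3.39 ± 3.39 CPM, and the homeobox gene Nkx6-2 fell from 16.2 ± 7.62 to 0.20 ± 0.54 CPM, each with an edgeR adjusted p = 0.0364. Hapln4 and Secisbp2 had 624 and 435 reads in the control sums and 0 in the E2 sums (edgeR adjusted p = 0.00775 and 0.0284). The 3 E2-treated cluster 1 cells left out of the sums held 18 reads of Hapln4 and 2 of Secisbp2. Over all cluster 1 cells Hapln4 was therefore at 42.9 reads per 1e6 in control and 4.81 in E2 (exact Poisson 95% interval 2.85 to 7.60), and Secisbp2 at 29.9 and 0.534 (0.0647 to 1.93), with intervals for counting error only. When each library was left out in turn, Hapln4 was called in all 17 fits, Secisbp2 in 15, Nkx6-2 in 11, Rps6ka4 in 7, and mt-Co2, mt-Cytb and Ctnnd1 in 3 each.

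Genes that E2 changed in responsive cells were followed in cluster 1. In responsive cells edgeR called 141 of 10266 genes, 87 higher and 54 lower with E2, and 75 and 51 of these could be tested in cluster 1. There 55 of the 75 and 37 of the 51 had a change in the responsive direction, with medians of 0.45 and -0.31 (log2), against 1.13 and -0.90 in responsive cells and -0.06 over all 8342 genes. None was called in cluster 1, and none by the interaction term. Lgals1 was at 16740 ± 2719 and 35211 ± 7953 CPM in responsive control and E2 libraries (log2 1.08, SE 0.13, edgeR adjusted p = 8.08e-06) and at 2090 ± 1277 and 1999 ± 1504 CPM in cluster 1 (-0.02, SE 0.39, adjusted p = 0.996). The difference between these changes was -1.14 (SE 0.42, adjusted p = 0.262). C1s1 fell with E2 in responsive cells by 0.91 on the log2 scale (SE 0.16, edgeR adjusted p = 0.00109), from 349 ± 43.8 to 185 ± 63.4 CPM, and the interaction was 1.16 (SE 0.30, adjusted p = 0.087). Krt19 rose by 0.62 (SE 0.13, edgeR adjusted p = 0.00977) in responsive cells and was at 25.5 ± 31.8 and 19.8 ± 30.1 CPM in cluster 1. Other genes moved in the same direction in both clusters. Igfbp5 changed by 2.62 (SE 0.23) in responsive cells and by 2.91 (SE 0.93) in cluster 1, and Fos by 0.69 and 0.88. Mgp changed by -1.85 and -1.38, and Psap by -1.49 and -0.86. By contrast, Cd320 changed by 2.85 and 0.03, and Vcam1 by -4.24 and -0.03. None of these differences between clusters passed the adjustment, and in simulated data the interaction test found 17% of genes changed 4-fold and 0% of those changed 2-fold.

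**Figure D5:**
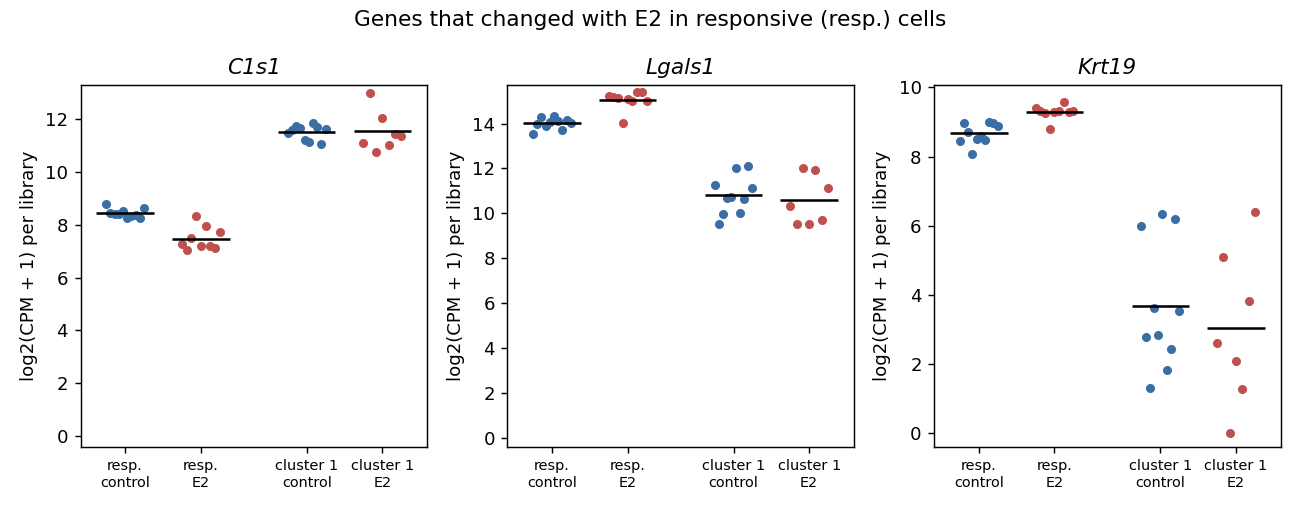
Levels of C1s1, Lgals1 and Krt19 on a log2(CPM + 1) axis, 1 point per library, by cluster and condition, with black bars at the means. In responsive cells control and E2 points separate except for E2 column 15, which lies in the control range for each gene (Lgals1 16824 CPM, against 32434 to 44043 CPM in the other 8 E2 libraries), and in cluster 1 they overlap for each gene.

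The interaction of E2 and cluster was called for 21 of 11394 genes (0.184%), 2 with a higher and 19 with a lower change in cluster 1. Of the 8 named, 6 had 0 to 4 reads in the E2 sums of cluster 1. Adcy2, an adenylate cyclase, had 3 reads in cluster 1 sums and 632 in E2-treated responsive cells, and Lrrc49 and Rundc3a had their highest cluster 1 level in column 15 (1376 and 746 CPM). Neither was called without the cluster 1 sum of column 15, with its responsive sum kept (edgeR interaction 3.79 and 5.18, adjusted p = 0.274 and 0.262). With the library as a block, 0 genes were called by edgeR (890 with an unadjusted p below 0.05), and DESeq2 called 98. Of 17 estradiol-induced genes in the table, 13 passed the level limit, 0 were apart and higher in cluster 1 and 4 were lower (Igfbp4, Igfbp5, Krt19 and Fos), with a median difference of -1.86. Over all genes 0.335% were higher and 2.05% lower, with a median of -0.48. The limit is on the mean of both clusters, so a gene can pass it through responsive cells alone. Igfbp4 was at 107 ± 122 CPM against 1881 ± 332 CPM, and the early gene Fos at 422 ± 306 against 1344 ± 504.4 CPM.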

How the data were processed

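Cells of both conditions went through 1 Fluidigm C1 chip, and the authors quantified reads per cell with kallisto 0.44.0 (GRCm38, per the labels) and deposited estimated counts per gene and cell from tximport, after quality control in scater. Capture sites were inspected by the authors, the metadata score 1 cell per site, and no doublet caller was run. The 40 row barcodes recur in each column by design, and no cell name was duplicated. The metadata, as deposited, hold the mitochondrial percent, the pseudotime score from monocle and SC3 cluster labels. The deposited imputed values were not used.

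Expected counts of 14299 genes (14135 with a symbol) in 589 cells were rounded, since 66.9% of values above 0 were whole, and summed per library and cluster where at least 3 cells were present. E2 and control were compared by edgeR 4.0.16 (R 4.3.3, TMM, filterByExpr, quasi-likelihood test, Benjamini-Hochberg adjustment), called at adjusted p under 0.05 and a log2 fold change over 0.5 in size. Library measures were compared by exact two-sided permutation tests (SciPy 1.17.1). Gene positions are those of GENCODE and promoters those of RefSeq on GRCm38. Alternatives were DESeq2 1.42.0, limma-voom (limma 3.58.1), other scalings and filters, 5 cells per sum, cells thinned to 20000 reads, other labels and each library left out. Between clusters the text names the markers and up to 12 genes in each direction of at least 20 CPM on average among genes apart, and for E2 and the interaction up to 6 called genes in each direction. For labels and pseudotime it names 8 genes in each direction with the same sign in both conditions, and other genes come from fixed lists. Some genes that these rules select are not reported here. The members, lists and rules were chosen with earlier results of these data known. Exact intervals and limits for a count of 0 cover counting error only, since reads, not molecules, were counted. Fewer cells of a type and less RNA per cell cannot be told apart in sums. Scripts were tested on simulated data, in which edgeR at the depth of the cluster 1 sums recovered 1% of genes changed 2-fold by E2 and 23% of those changed 4-fold (7702 genes).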

Additional observations from a re-analysis of the deposited data

Results flagged for a closer look

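Among 26 groups of libraries examined for a sample far from the others, 3 held one, and chance gives about 1 in 20. Lgals3 in cluster 1 was at 396.0 CPM in E2 column 20, against 45.8 to 143.3 CPM in the other 6 E2 libraries. C1s1 was at 8112 CPM in E2 column 15, against 1712 to 4211 CPM in the others. The mitochondrial share of cluster 1 cells was 4.92% in E2 column 16, against 3.09 to 3.88%.

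By the interaction term of edgeR, 8 named genes were called for a difference of the E2 change between cluster 1 and responsive cells. With the library as a block none of the 8 was called (adjusted p = 0.223 to 0.49, edgeR). The fitted log2 differences, which depend on the prior count where reads are 0, were -9.95 for Gm10800, -9.94 for Secisbp2, -9.93 for Fam208b, -9.52 for Sema6d, -9.03 for Adcy2 and -8.98 for Ttll4, and 6.91 for Lrrc49 and 9.36 for Rundc3a. Without the cluster 1 sum of column 15, Lrrc49 was at 3.79 and Rundc3a at 5.18, and neither was called (edgeR adjusted p = 0.274 and 0.262). Secisbp2, Fam208b, Sema6d, Adcy2 and Ttll4 had 0 reads in the E2 sums of cluster 1. In responsive cells Fam208b was at 26.1 ± 14.9 CPM in control and 50.2 ± 22.3 CPM in E2 libraries, and in cluster 1 control libraries at 31.1 ± 22.8 CPM.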

How the results depend on the processing

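The number of genes apart between the clusters was 249 and stayed between 211 and 280 under 7 other settings, with 0 genes turning to the other side under any of them. Asked of fewer libraries it was 488 in control libraries only and 952 in E2 libraries only, where the same direction was needed in 10 and in 7. The split was 14.1% higher and reached 25.7% with the mean of single cells, 24.4% without TMM, 21.8% with responsive sums thinned and 26.2% in control libraries only, and it was 8.30% in E2 libraries only and 12.9 to 18.9% in the other 4.

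For E2 within cluster 1, the 7 calls became 50 with DESeq2 and 1 without a filter on low counts, and leaving out each library gave 1 to 9, with 1 without column 11 and 1 without column 19. The interaction went from 21 to 98 with DESeq2, 5 at 20000 reads per cell and 0 with the library as a replicate block. The causes were not tested. For E2 against control, no paired analysis was possible because the column numbers of the groups are not shared.

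Uncalled marker changes with E2 near 0 turned sign in some settings. Col1a2 was at -0.0395 with limma-voom and -0.0189 with 5 cells per sum, and leaving out libraries gave -0.0189 to 0.18. Lgals3 was at -0.0284 with limma-voom and -0.0042 without a filter, and at -0.606 to 0.44 when libraries were left out. Cyp1b1 was at -0.45 with limma-voom and -0.17 with 5 cells per sum, and at -0.172 to 0.62 when libraries were left out. Gpc3 was at -0.33 with limma-voom, and at -0.149 to 0.32 when libraries were left out. C1s1 was at -0.0623 with limma-voom and -0.12 with 5 cells per sum, and at -0.119 to 0.41 when libraries were left out. None was called in any of these fits.

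Genes per cell fell by 255 with all libraries that had a cluster 1 cell (exact permutation p = 0.0343). Genes with a correlation past the limit along pseudotime numbered 34, 18 at 20000 reads per cell and 16 with Pearson's r. The depth of the cluster 1 sums, and 5 cells or fewer in 5 of the 7 E2 sums, limit what could be found.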
